A study of Mus musculus with 12 samples.

Results

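The Rab genes described here are the members of the Rab family of small GTPases that could be measured on a mouse expression array in macrophages. They were taken as every gene whose RefSeq symbol is Rab followed by a number, with or without a letter, and they were kept where the 4 arrays of 1 or more groups all read a probe well above background. Of 59 such symbols, 57 had a matched probe and 48 were kept, out of 13169 genes tested. Among the 48, 43 were above background on all 12 arrays. Rab27a and Rab42 were kept through the control arrays only, and Rab38, Rab39 and Rab4a through the control and LPS plus IFNγ arrays, so a lower value with emodin was built into how these 5 were kept, and for Rab27a and Rab42 a lower value with LPS plus IFNγ as well. No matched probe was found for Rab36 and Rab44, which were not analysed here. The 9 others were on the array but in no group did every array read them above background: Rab17, Rab25, Rab26, Rab27b, Rab30, Rab39b, Rab3b, Rab40b and Rab9b. Of these, Rab3b was above background on 3 of 4 arrays in each group and Rab40b on 3 of 4 control arrays and on no other.

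Rab proteins are molecular switches on the surface of membranes. Exchange factors load them with GTP, GTPase-activating proteins turn them off, and in the active state each recruits effectors such as tethers, motors and lipid kinases to its own compartment. In macrophages they carry cargo from the endoplasmic reticulum through the Golgi, sort endosomes, mature phagosomes and move cytokines and granules to the surface. The comparisons below ask how the level of their transcripts stood after an inflammatory stimulus, and how it stood when emodin, a plant anthraquinone, was given with that stimulus.

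RNA came from peritoneal macrophages of wild-type C57BL/6 mice in all groups, plated, washed free of cells that had not attached after 2 h, and kept overnight without serum before treatment. The control group received vehicle (4 arrays, mice of 8 weeks, 2 labelled female and 2 male). The LPS plus IFNγ group received 100 ng/ml of lipopolysaccharide and 20 ng/ml of interferon gamma for 20 h (4 arrays, mice of 9 weeks, all labelled female), and the emodin group received the same stimulus with 50 µM emodin (4 arrays, 9 weeks, all labelled female). The labelling started from 200 ng of RNA, and arrays were read in 1 colour. The design text calls the samples biological replicates and names PMN where the sample labels name macrophages. No label ties a sample to an animal. The p-values therefore rest on sample-to-sample spread alone, which may be technical. The 4 control arrays lay on a slide of their own, so slide, age and treatment cannot be told apart in any comparison with control, whereas both treated groups shared 1 slide.

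A level here is the log2 of an array's processed signal minus the log2 of that array's 75th percentile. A change is a difference of group means on that scale, with its standard error (SE) from a limma fit over all genes. A gene is called when its Benjamini-Hochberg adjusted p over the 13169 genes is under 0.05. Levels of different probes are not compared. For Rab genes, other settings are named where they ended a call or moved a large change by over 1.5 times: quantile scaling, a normexp background correction of the median spot signal, scaling by spike-in RNAs (treated groups only, which share a slide), and the replicate number as a block between the treated groups. Spike-in scaling moved the change of every gene between the treated groups by nearly the same amount (median -0.69), and for regulators it is named where it ended a call.

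The share of probes well above background ran from 45.4% to 50.8% per array. The macrophage markers Adgre1, Csf1r, Itgam, Lyz2, Mertk, Fcgr1 and Gata6 were above background on all 12 arrays, and Timd4 on the control and LPS plus IFNγ arrays. The mean level of 8 macrophage markers lay between 2.82 and 2.97 in control, 3.17 and 3.33 with LPS plus IFNγ, and 2.02 and 2.46 with emodin. Lyz2 was higher with emodin (8.12 to 8.34) than with LPS plus IFNγ (7.07 to 7.41), as was Itgam (3.2 to 3.6 against 2.6 to 2.8). Adgre1, Csf1r, Mertk, Fcgr1 and Timd4 were lower with emodin, and Gata6 overlapped. Markers of other cells were measured as well. The mean of 10 mesothelial and fibroblast genes ran from -0.84 to 0.98 in control, -0.98 to 0.02 with LPS plus IFNγ and -3.35 to -1.97 with emodin. Upk1b and Lrrn4 were above background on no treated array and Pdgfra on no emodin array, while Col1a2 read 2.17 to 3.99 in control, 4.33 to 5.28 with LPS plus IFNγ and 0.33 to 1.98 with emodin, and Dcn 2.96 to 5.37, 5.46 to 6.42 and 3.14 to 4.87. The mean of 7 neutrophil genes ran from -0.97 to -0.57, -1.96 to -1.67 and -1.32 to -0.84 in the same order. S100a8, Elane, Camp and Mmp8 were above background on all 12 arrays, and Ngp on none. Camp and S100a8 were higher with LPS plus IFNγ (-1.526 to -1.044 and 3.515 to 3.936) than in control (-3.498 to -3.328 and 2.643 to 3.481). S100a9, Ltf and Mmp8 were lower, and Mpo and Elane overlapped. For 4 lymphocyte genes the ranges were -0.76 to 0.02, -1.19 to 0.03 and -1.9 to -1.69, with Ms4a1 above background on no emodin array, whereas Cd3e was higher with emodin (0.89 to 1.12) than with LPS plus IFNγ (0.18 to 0.58), as was Nkg7 (3.25 to 3.38 against 2.62 to 2.79). For 4 mast cell genes they were -3.73 to -2.17, -3.73 to -2.52 and -3.72 to -2.0. In bulk RNA, fewer cells of a type and less RNA per cell cannot be told apart. Of the Y-linked genes, Kdm5d and Uty were above background on no array. Control replicates 3 and 4, labelled male, had Xist signal and no signal of Ddx3y or Eif2s3y. Replicate 3 of both treated groups, labelled female, had the reverse. Leaving out both of those replicates numbered 3 is given below for each Rab gene whose call it ended. The 75th percentile signal itself was 435 to 547 on the emodin arrays and 746 to 969 on the others.

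With LPS plus IFNγ the Rab genes spread in both directions, as did all genes tested, rather than moving together. Of the 48, 18 were higher than in control (37.5%, against 33.6% of all genes tested) and 20 were lower (41.7%, against 35.5%), which made 79.2% called against 69.1% of all genes. Rab33a, Rab20 and Rab32 rose by 3.23, 2.12 and 1.52 on the log2 scale, and Rab7b, Rab19 and Rab6b fell by 1.92, 1.78 and 1.32. Rab15 rose by 2.34 by the probe used and fell by 0.68 by its other probe. The 20 include Rab27a and Rab42, kept through the control arrays only. The median change was -0.09, beside -0.04 over all genes. A called change of at least 2-fold was seen for 6 Rab genes upward and 5 downward (22.9%, against 26.3% of all genes). The arrays of both groups did not overlap for 34 Rab genes (70.8%, against 64.4% of all genes). Quantile scaling also called falls of Rab14, Rab8a and Rab3d (adjusted p = 0.00415, 0.00681 and 0.0268), and normexp one of Rab14 (0.0262).

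When emodin was added to the stimulus, more Rab genes fell than rose on this scale. Compared with LPS plus IFNγ alone, 9 Rab genes rose (18.8%, against 36.6% of all genes tested) and 25 fell (52.1%, against 35.6%), which made 70.8% called against 72.2%. Rab39 and Rab38 fell to below background, Rab19, Rab32, Rab23 and Rab33a fell by 1.75, 1.62, 1.51 and 1.49, and the largest rises were those of Rab9 and Rab43, by 1.88 and 1.15. The 25 include Rab27a, Rab42, Rab38, Rab39 and Rab4a, kept only through groups without emodin. The median change was -0.22, beside 0.02 over all genes. With only probes above background on all arrays, it was -0.08 over 43 Rab genes, beside 0.06 over 11194 genes. Changes of at least 2-fold numbered 2 upward and 11 downward (27.1%, against 26.5% of all genes). Rab27a, Rab38, Rab39 and Rab42 are among these 11. The arrays did not overlap for 33 Rab genes (68.8%, against 67.7%). Scaling by spike-in RNAs moved the median of all genes from 0.02 to -0.67 and that of the Rab genes from -0.22 to -0.92. On that scale 2 Rab genes were called up, Rab9 and Rab43, and 40 were called down (4.17% and 83.3%, against 9.28% and 65.5% of all genes). Quantile scaling also called falls of Rab12, Rab1a and Rab35 (adjusted p = 0.0125, 0.0159 and 0.0423), and normexp one of Rab7 (0.017). The mean levels of the macrophage, the mesothelial and fibroblast, and the lymphocyte markers were all lower on the emodin than on the LPS plus IFNγ arrays. Within those lists Lyz2, Itgam, Cd3e and Nkg7 were higher. The part of these cell types in the falls of Rab genes was not tested. The counts by site and by regulator list that follow stand beside the shares over all genes, which were 33.6% up and 35.5% down with LPS plus IFNγ and 36.6% up and 35.6% down with emodin.

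**Figure D1:**
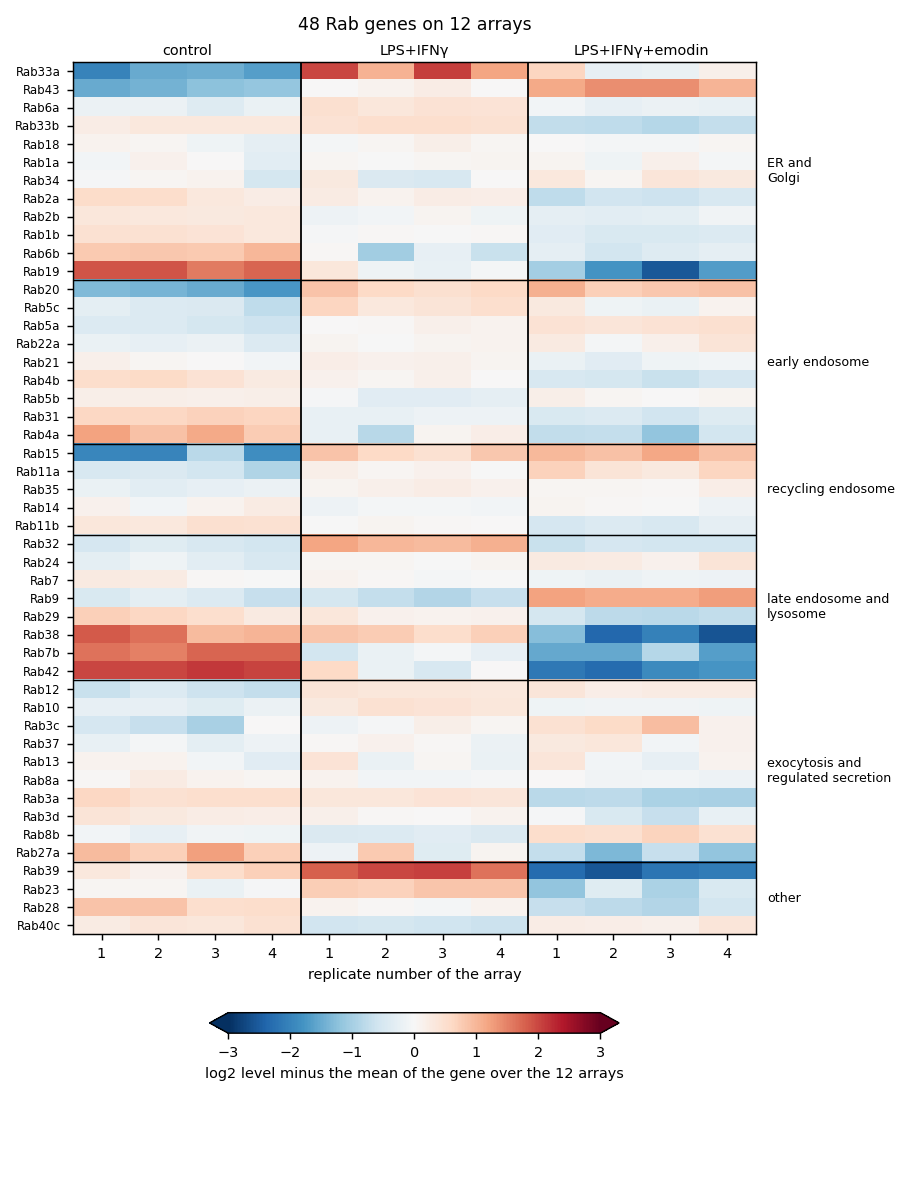
Level of each of the 48 Rab genes on each of the 12 arrays, as the log2 level minus the gene's own mean over the 12 arrays (colour, red above and blue below that mean). Columns are arrays by group and replicate number, and rows are genes by site of action, ordered within a site by their change with LPS plus IFNγ. Rab33a, Rab20 and Rab15 are blue in control and red in both treated groups or in the first of them, and Rab42, Rab7b and Rab38 are red in control and blue with emodin.

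**Figure D2:**
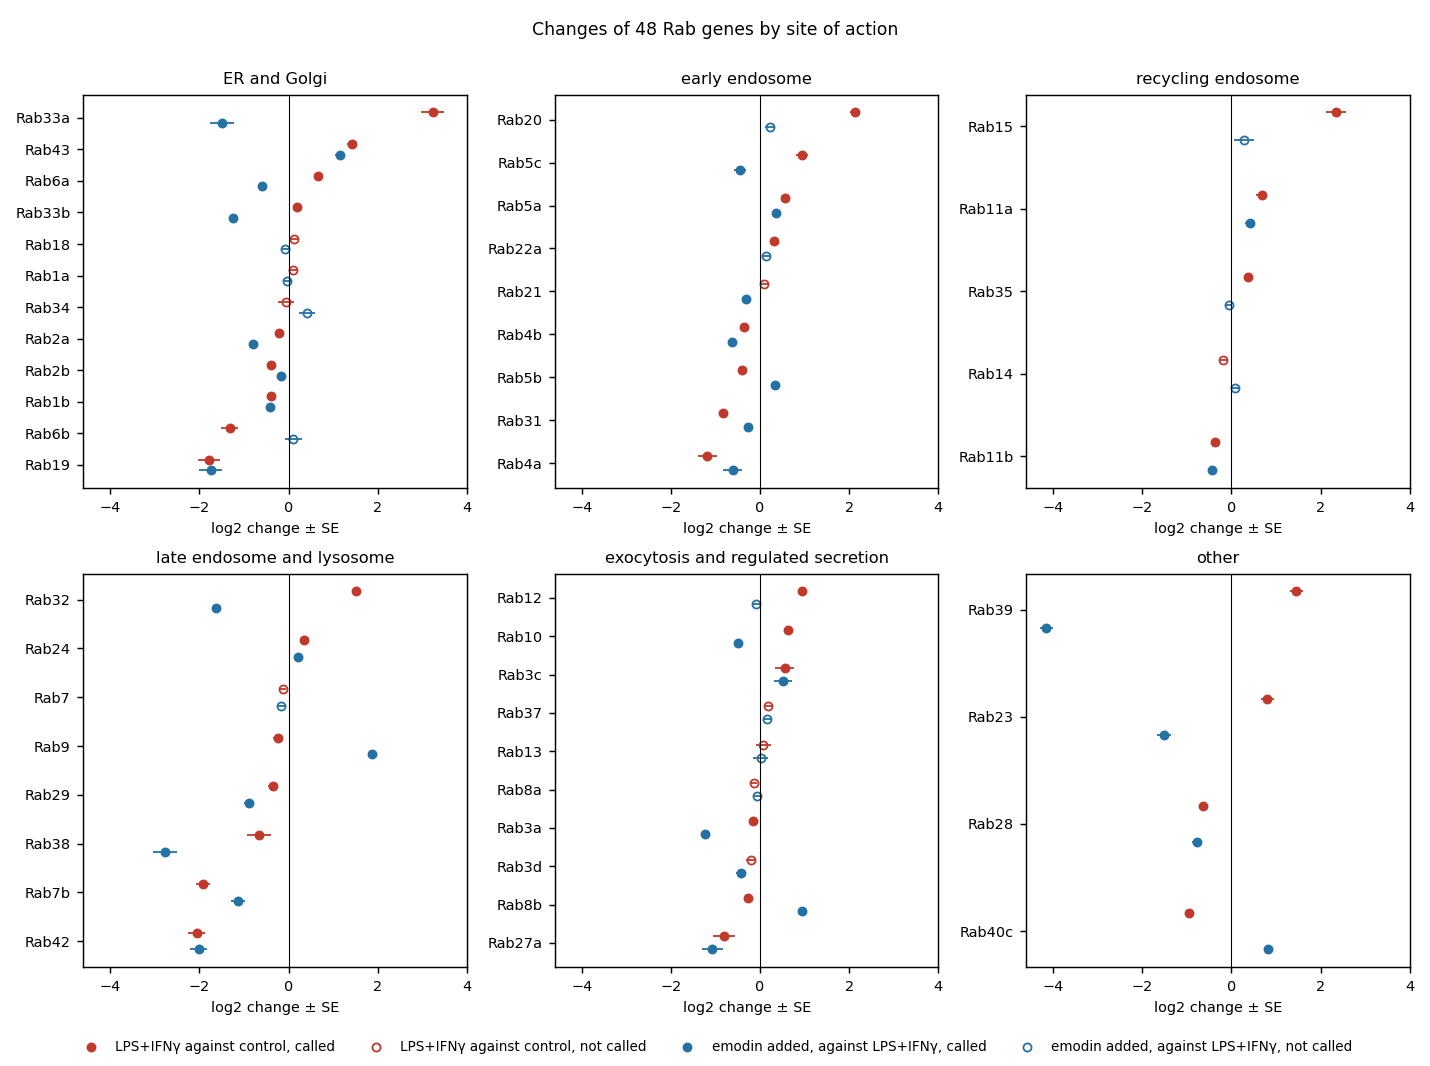
Change ± SE (log2, horizontal axis) of the 48 Rab genes in 6 panels by site of action, for LPS plus IFNγ against control (red) and for emodin added against LPS plus IFNγ (blue), which share the LPS plus IFNγ arrays. Filled points are called and open points are not. Points for Rab27a, Rab38, Rab39 and Rab42 with emodin, and most readings behind that of Rab42 with LPS plus IFNγ, rest on arrays where the probe was not above background.

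Promoter windows (250 bases before to 50 after the start, RefSeq, GRCm38.p6) were matched for 42 of the 48 genes. Both strands were searched for an interferon gamma-type STAT site (GAS, TTC, any 3 bases, GAA), an interferon-stimulated response element (ISRE, GAAA, any 2 bases, GAAA), an NF-κB-type site (GGGA, any base, TTTCC) and an E-box of the lysosomal type (CACGTG). A match is a description of letters, not a site in use. The GAS letters stood in 4 of 42 Rab genes (9.52%, against 8.63% of 10527 tested genes with a window), in Rab11a, Rab15, Rab19 and Rab34. The ISRE letters stood in 1 (2.38%, against 3.89%), Rab19, the NF-κB letters in none (against 0.57%), and the E-box in 6 (14.3%, against 11.4%), in Rab20, Rab21, Rab23, Rab24, Rab27a and Rab5a. The windows of 4 genes with large changes are shown, because they span what was found: Rab33a, with the largest rise and none of the letters, Rab20 and Rab15, with the next largest rises by the probes used, and Rab19, which fell at both steps. Capitals mark the matches. In Rab20 they are an E-box and in Rab15 a GAS match (1 of 4 windows of that gene, the other 3 without a match). In Rab19 they are a GAS match and then 2 ISRE matches that overlap each other.
Rab33a, chrX:48519035-48519334, plus strand: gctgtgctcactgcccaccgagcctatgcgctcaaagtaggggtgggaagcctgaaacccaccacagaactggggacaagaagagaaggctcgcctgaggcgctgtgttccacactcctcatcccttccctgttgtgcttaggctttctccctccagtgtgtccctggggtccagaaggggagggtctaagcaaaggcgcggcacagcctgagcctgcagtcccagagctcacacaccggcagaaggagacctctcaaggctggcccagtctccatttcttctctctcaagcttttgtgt
Rab20, chr8:11478591-11478890, minus strand: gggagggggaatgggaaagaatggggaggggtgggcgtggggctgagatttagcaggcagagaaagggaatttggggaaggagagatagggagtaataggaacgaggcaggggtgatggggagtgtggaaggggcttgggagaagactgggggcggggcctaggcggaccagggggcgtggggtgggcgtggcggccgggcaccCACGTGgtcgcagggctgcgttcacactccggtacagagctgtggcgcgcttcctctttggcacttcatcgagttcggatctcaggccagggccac
Rab15, chr12:76813807-76814106, minus strand: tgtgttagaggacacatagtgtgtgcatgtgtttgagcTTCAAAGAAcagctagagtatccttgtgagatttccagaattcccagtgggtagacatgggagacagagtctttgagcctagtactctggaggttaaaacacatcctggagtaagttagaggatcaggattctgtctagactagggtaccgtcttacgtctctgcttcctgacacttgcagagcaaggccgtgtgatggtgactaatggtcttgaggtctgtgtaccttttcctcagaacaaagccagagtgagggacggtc
Rab19, chr6:39381103-39381402, plus strand: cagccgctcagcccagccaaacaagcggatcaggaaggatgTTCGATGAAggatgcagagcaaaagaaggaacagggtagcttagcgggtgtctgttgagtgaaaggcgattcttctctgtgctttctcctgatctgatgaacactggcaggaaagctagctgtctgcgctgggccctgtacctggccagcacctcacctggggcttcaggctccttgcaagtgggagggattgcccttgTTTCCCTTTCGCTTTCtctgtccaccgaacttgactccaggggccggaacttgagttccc

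Among the 12 Rab genes of the endoplasmic reticulum and Golgi, 4 rose and 5 fell with LPS plus IFNγ, and 1 rose and 7 fell when emodin was added. Rab33a, of Golgi-derived vesicles, read -2.92, -2.43, -2.38 and -2.58 on the control arrays, 1.09, 0.12, 1.15 and 0.25 with LPS plus IFNγ and -0.27, -1.18, -1.12 and -0.78 with emodin. Control was lowest on every array, both treated groups were higher, and the 3 groups did not overlap. Its rise of 3.23 ± 0.27 (adjusted p = 5.07e-07) was 9.39-fold, and with emodin it fell by 1.49 ± 0.27 (adjusted p = 0.000327), which left it 3.34-fold above control. Rab33b itself, which binds the autophagy protein Atg16L1, read 1.99, 2.10, 2.08 and 2.08 in control, 2.20, 2.28, 2.26 and 2.23 with LPS plus IFNγ and 1.04, 1.02, 0.90 and 1.06 with emodin. Its rise was small, 0.18 ± 0.06 (adjusted p = 0.0149), and it was not called under quantile scaling (0.09, adjusted p = 0.181). Its fall with emodin was 1.24 ± 0.06 (adjusted p = 7.34e-09; 1.93 by spike-ins), all 4 emodin arrays lying below both other groups. A second, dimmer Rab33b probe fell by 0.29 with emodin.

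Rab43, a Golgi Rab also linked to antigen cross-presentation, rose at each step. It read 4.96, 5.05, 5.24 and 5.29 in control, 6.47, 6.56, 6.69 and 6.48 with LPS plus IFNγ and 7.60, 7.87, 7.87 and 7.48 with emodin, 3 groups without overlap. The rise was 2.67-fold with LPS plus IFNγ (adjusted p = 2.77e-07) and a further 2.23-fold with emodin (adjusted p = 1.73e-06). The dimmer Rab43 probe rose by 1.16 and 2.57. Under spike-in scaling the rise with emodin was 0.46 (adjusted p = 0.0176).

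Rab19 went the other way at each step. Its levels were 2.51, 2.51, 2.19 and 2.38 in control, 0.98, 0.49, 0.41 and 0.58 with LPS plus IFNγ and -0.40, -1.16, -1.92 and -1.06 with emodin, again without overlap. It fell by 1.78 ± 0.25 (adjusted p = 5.7e-05) and by a further 1.75 ± 0.25 (adjusted p = 6.24e-05), and stood 11.6-fold below control with emodin. Rab6b, the paralogue of the intra-Golgi and retrograde transport protein Rab6a, read 0.23, 0.25, 0.23 and 0.44 in control, -0.52, -1.61, -0.80 and -1.23 with LPS plus IFNγ and -0.83, -1.11, -0.94 and -0.83 with emodin. It was lower than control on all 8 treated arrays, by 1.32 ± 0.19 with LPS plus IFNγ (adjusted p = 6.05e-05), and the treated groups overlapped (change 0.11 ± 0.19, adjusted p = 0.615). Rab6a rose and then fell, by 0.66 and 0.61, to a level 0.05 ± 0.07 from control (adjusted p = 0.506).

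The other genes of this site had changes under 1 in size. Rab1b, which with Rab1a drives traffic from the endoplasmic reticulum to the Golgi, fell by 0.40 and then 0.42, while Rab1a was called in neither comparison (0.11 ± 0.10 and -0.04 ± 0.10). Rab2a, needed for retrograde Golgi traffic and for fusion with lysosomes, fell by 0.80 with emodin (adjusted p = 6.1e-06). Its change with LPS plus IFNγ, -0.21 (adjusted p = 0.0488), lost its call when any of 8 arrays was left out (control 1 and 2, LPS plus IFNγ 1 to 4, emodin 2 and 3), at adjusted p from 0.0565 to 0.134, and without both replicates 3 (0.0883). Rab2b fell by 0.39 with LPS plus IFNγ. With emodin its change of -0.18 (adjusted p = 0.0426) was not called with the replicate number as a block (adjusted p = 0.112), without both replicates 3 (0.233), or without any of 9 arrays (control 1 to 3, LPS plus IFNγ 2 to 4, emodin 1 to 3; adjusted p from 0.0521 to 0.13). Rab18, of lipid droplets and the endoplasmic reticulum, and Rab34, of the Golgi and phagosomes, were called in neither comparison; Rab34 changed by 0.41 ± 0.19 with emodin (adjusted p = 0.0641) and passed the threshold with the block (0.0459).

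**Figure D3:**
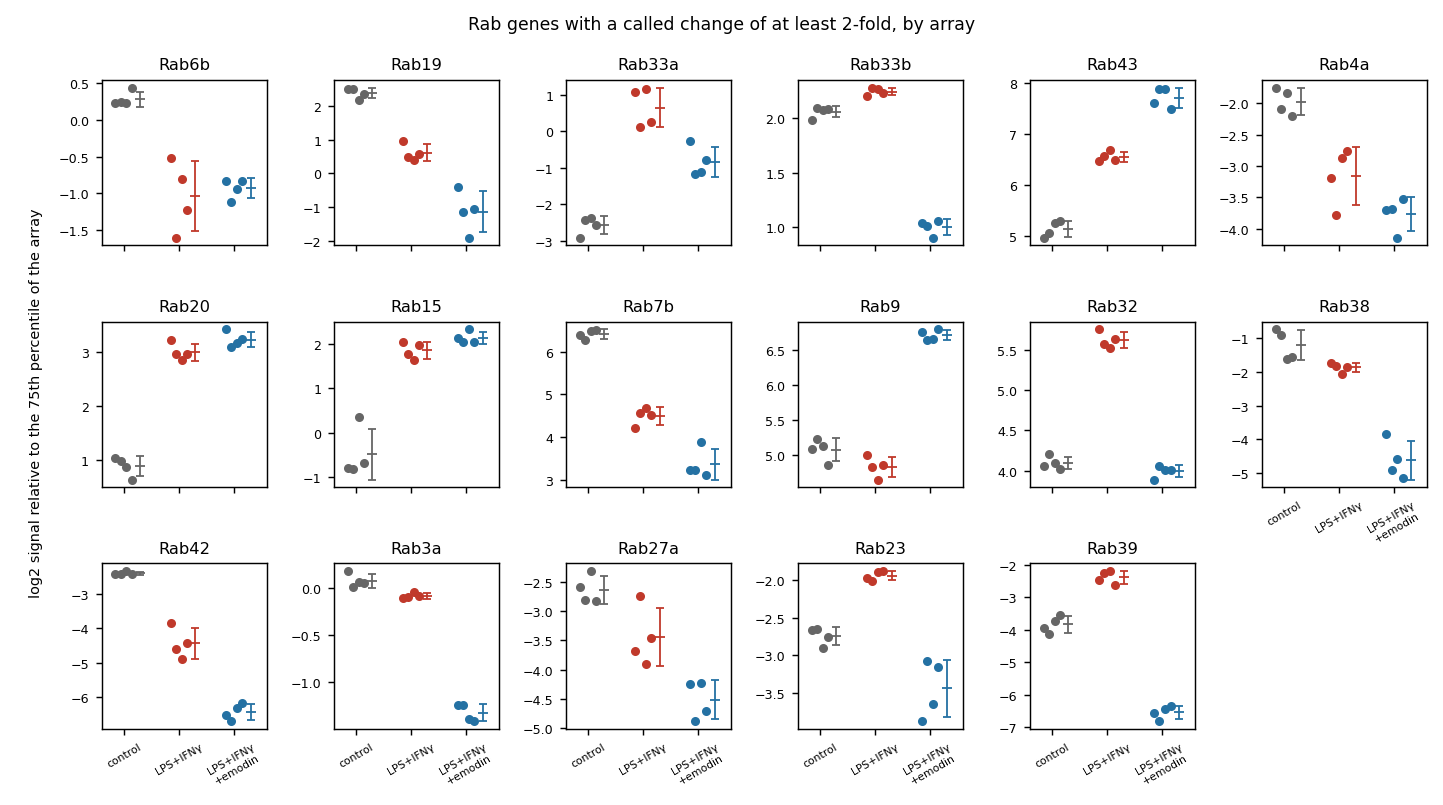
Log2 level (vertical axis, own scale in each panel) of the 17 Rab genes with a called change of at least 2-fold in LPS plus IFNγ against control or in emodin added against LPS plus IFNγ. Points are the 4 arrays of a group and the bar beside them is the mean ± SD. Rab32 rises and returns to where it overlaps control (-0.10 from it, or -0.38 by quantile scaling), Rab43 climbs at both steps and Rab19 descends at both.

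Of 9 early endosome genes, 4 rose and 4 fell with LPS plus IFNγ, and 2 rose and 5 fell with emodin. Rab20, which acts in phagosome maturation, stood at 1.04, 0.98, 0.87 and 0.63 in control, 3.23, 2.97, 2.86 and 2.97 with LPS plus IFNγ and 3.43, 3.1, 3.17 and 3.25 with emodin. All 8 treated arrays lay above all control arrays, and the treated groups overlapped. The rise was 2.12 ± 0.11 or 4.36-fold (adjusted p = 9.04e-09). Emodin added 0.23 ± 0.11 (adjusted p = 0.0808), called with the replicate block (0.0196), and turned to -0.46 by spike-in scaling. Rab4a, of rapid recycling, read -1.76, -2.10, -1.84 and -2.21 in control, -3.19, -3.79, -2.88 and -2.76 with LPS plus IFNγ and -3.71, -3.68, -4.15 and -3.52 with emodin, where 3 of 4 arrays were above background. Its fall with LPS plus IFNγ was 1.18 ± 0.21 (adjusted p = 0.000382). The further difference with emodin was -0.61 ± 0.21 (-0.12 by normexp), and the groups overlapped. No test is given for it, because Rab4a was kept only through groups without emodin. Its call, counted above, was lost with the block, by normexp and without both replicates 3. It was also lost without LPS plus IFNγ replicate 3 or 4, or without emodin replicate 3.

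The isoforms of Rab5, the master regulator of early endosome fusion, parted. With LPS plus IFNγ, Rab5a rose by 0.56 ± 0.07 and Rab5c by 0.94 ± 0.13, while Rab5b fell by 0.41 ± 0.07. With emodin, Rab5a rose again by 0.35 ± 0.07, Rab5b rose by 0.33 ± 0.07, and Rab5c fell by 0.45 ± 0.13 (adjusted p = 0.00773). Scaled by spike-ins, the emodin changes of Rab5a and Rab5b were -0.35 and -0.36. Rab31, which links the Golgi and early phagosomes, fell from 3.77 ± 0.02 (SD, n = 4) in control to 2.94 ± 0.03 with LPS plus IFNγ and 2.67 ± 0.08 with emodin, both steps called, and Rab4b fell by 0.36 and 0.63. Rab22a rose by 0.32 with LPS plus IFNγ (adjusted p = 0.00903; 0.20, adjusted p = 0.0653 by quantile scaling), and Rab21, which carries integrins, fell by 0.32 with emodin (0.21, adjusted p = 0.058 by normexp).

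In the group of 5 recycling endosome genes, 3 rose and 1 fell with LPS plus IFNγ, and 1 rose and 1 fell with emodin. Rab15, which slows receptor recycling, read -0.80, -0.82, 0.36 and -0.69 in control, 2.03, 1.77, 1.63 and 1.96 with LPS plus IFNγ and 2.14, 2.04, 2.32 and 2.04 with emodin. Every treated array was above every control array, with control replicate 3 apart from the other controls, and the emodin arrays lay just above the LPS plus IFNγ arrays. The rise of 2.34 ± 0.23 was 5.05-fold (adjusted p = 2.07e-06), and emodin left it at 0.29 ± 0.23 from the stimulus alone (adjusted p = 0.273). Its second probe, also above background on all 12 arrays, changed by -0.68 and 0.50, so the probes of Rab15 disagreed on the direction of the first change. Rab11a, the main Rab of recycling endosomes, rose by 0.68 ± 0.12 and then 0.42 ± 0.12 (adjusted p = 0.00746; 0.21, adjusted p = 0.152 by normexp, and -0.28 by spike-ins). Rab11b fell by 0.37 and 0.44. Rab35 rose by 0.38 with LPS plus IFNγ, a call that quantile scaling removed (0.16, adjusted p = 0.073), and Rab14 was called in neither comparison.

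Of 8 late endosome and lysosome Rab genes, 2 rose and 5 fell with LPS plus IFNγ, and 2 rose and 5 fell with emodin. The falls with emodin include Rab38 and Rab42, kept only through groups without emodin. Rab32, which builds lysosome-related organelles and restricts some intracellular bacteria, read 4.06, 4.21, 4.10 and 4.03 in control, 5.75, 5.57, 5.52 and 5.63 with LPS plus IFNγ and 3.89, 4.06, 4.01 and 4.02 with emodin. The stimulated arrays stood above all others, and control and emodin arrays overlapped. It rose 2.87-fold (1.52 ± 0.07, adjusted p = 3.51e-09) and fell by 1.62 ± 0.07 (adjusted p = 4.57e-09), to -0.10 ± 0.07 from control (adjusted p = 0.211; -0.38, adjusted p = 0.00024 by quantile scaling). Rab38, its closest relative, read -0.73, -0.91, -1.61 and -1.55 in control and -1.74, -1.82, -2.05 and -1.85 with LPS plus IFNγ. On the emodin arrays the measured values were -3.85, -4.93, -4.6 and -5.16, none of them above background, so Rab38 was at least 4.84-fold lower than with LPS plus IFNγ. No test is given, because Rab38 was kept through the groups where it was high. A bound of this kind sets the bright group's mean against a floor on each dim array. That floor is the higher of the lowest signal still above background and the probe's own. By normexp, which shrinks differences near background, the change was -0.93. The fall of Rab38 from control to LPS plus IFNγ, 0.67 ± 0.27 (adjusted p = 0.0448), was lost when any of 7 arrays was left out (control 1 and 2, LPS plus IFNγ 1 to 4, emodin 3; adjusted p from 0.0559 to 0.129) and without both replicates 3 (0.118).

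Rab7b, which directs Toll-like receptors towards degradation, fell at each step. Its levels were 6.39, 6.27, 6.5 and 6.51 in control, 4.21, 4.56, 4.69 and 4.52 with LPS plus IFNγ and 3.22, 3.22, 3.89 and 3.1 with emodin, where replicate 3 was higher than the other 3 and still below every stimulated array. The falls were 1.92 ± 0.16 (adjusted p = 6.09e-07) and 1.13 ± 0.16 (adjusted p = 5.46e-05; 1.83 by spike-ins), 8.32-fold in all from control to emodin. Rab7, the general late endosome Rab, changed by -0.13 ± 0.08 and -0.17 ± 0.08 and was called in neither, although quantile scaling called both falls (0.29 at each step, adjusted p = 0.0015 and 0.00159).

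Rab9, which retrieves mannose 6-phosphate receptors from late endosomes to the Golgi, was the Rab gene that rose most with emodin. It read 5.08, 5.24, 5.13 and 4.86 in control, 5.0, 4.83, 4.65 and 4.85 with LPS plus IFNγ and 6.76, 6.65, 6.65 and 6.79 with emodin. The emodin arrays lay above all others by more than the spread within any group, and the other groups overlapped. Emodin raised it 3.67-fold (1.88 ± 0.10, adjusted p = 1.3e-08), 2 further probes rose by 1.92 and 2.14, and the rise was 1.18 by spike-ins (adjusted p = 2.43e-06). Its small fall with LPS plus IFNγ (-0.24, adjusted p = 0.0401) was not called without control 1, 2 or 3 or LPS plus IFNγ 2, 3 or 4 (adjusted p from 0.0659 to 0.12) or without both replicates 3 (0.132).

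Rab42 read -2.41, -2.41, -2.31 and -2.40 in control and -3.82, -4.61, -4.90 and -4.41 with LPS plus IFNγ, where 1 of 4 arrays was above background. All 4 of these lay below control, by a mean difference of -2.06 (-1.10 by normexp) that rests on 3 readings not above background in a gene kept through control, so no fold or test is given. The emodin arrays read -6.56, -6.72, -6.33 and -6.18 and none was above background, so Rab42 was at least 3.74-fold lower than in control, and no fold is given against LPS plus IFNγ. Rab29, a partner that recruits LRRK2 to membranes, fell by 0.35 and then 0.89 ± 0.10 (adjusted p = 1.06e-05); the first of these was not called by normexp (adjusted p = 0.0959). Rab24, of autophagy, rose by 0.35 with LPS plus IFNγ. Its rise of 0.22 with emodin (adjusted p = 0.0275) was lost without LPS plus IFNγ 3 or emodin 1 or 4 (adjusted p from 0.0533 to 0.0798), by quantile scaling (0.288) and by normexp (0.207), and it was -0.47 by spike-ins.

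Of 10 genes of exocytosis and regulated secretion, 3 rose and 3 fell with LPS plus IFNγ, and 2 rose and 4 fell with emodin. Rab3a, a Rab of regulated exocytosis, read 0.18, 0.01, 0.06 and 0.05 in control, -0.11, -0.10, -0.05 and -0.09 with LPS plus IFNγ and -1.25, -1.24, -1.39 and -1.41 with emodin. All emodin arrays were lower than the rest, and the fall was 1.24 ± 0.07 (adjusted p = 1.67e-08; 1.93 by spike-ins). Its step with LPS plus IFNγ, -0.16 (adjusted p = 0.0449), was not called without control 1, 3 or 4 or any LPS plus IFNγ array (adjusted p from 0.053 to 0.128), without both replicates 3 (0.0583) or by quantile scaling (0.0679). Rab27a, which docks secretory lysosomes and exosome-bearing vesicles, read -2.59, -2.81, -2.31 and -2.82 in control and -3.68, -2.74, -3.90 and -3.46 with LPS plus IFNγ, with replicate 2 of the latter inside the control range. On the emodin arrays it read -4.24, -4.88, -4.23 and -4.70, none above background, which made it at least 1.73-fold lower than with LPS plus IFNγ and at least 3.03-fold lower than in control. Its measured difference between the treated groups was -1.07 (-1.76 by spike-ins) and turned to 0.12 by normexp. No test is given, because Rab27a was kept through the control arrays only.

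By the probes used, Rab8b and Rab10, which with Rab8a carry cargo from the Golgi to the surface, moved apart. Rab8b went from 4.97 ± 0.07 (SD, n = 4) in control to 4.70 ± 0.05 with LPS plus IFNγ and 5.64 ± 0.09 with emodin, a rise of 0.93 ± 0.07 at the second step (adjusted p = 1.47e-07; 0.24, adjusted p = 0.0728 scaled by spike-ins). Rab10 went from 3.55 ± 0.09 to 4.19 ± 0.07 and 3.70 ± 0.01. Its second probe rose with LPS plus IFNγ too, by 1.21, but with emodin the probes disagreed, at -0.49 and 0.45. The fall of Rab8b with LPS plus IFNγ was not called by normexp (adjusted p = 0.163). Its second probe changed by 0.05 with LPS plus IFNγ and by 0.96 with emodin. Rab8a was called in neither comparison. Rab12, counted at this site but also known for degradative receptor traffic, rose by 0.95 ± 0.07 with LPS plus IFNγ (adjusted p = 2.53e-07). With emodin it was -0.08 from that level (adjusted p = 0.322). Rab3d, a granule Rab, fell by 0.42 with emodin. Rab3c changed by 0.55 with LPS plus IFNγ (adjusted p = 0.0316), a call lost without control 1, 2 or 3 or LPS plus IFNγ 2, 3 or 4 (adjusted p from 0.0514 to 0.0959), without both replicates 3 (0.0596) or by quantile scaling (0.0981). Its change of 0.51 with emodin (adjusted p = 0.0417) was lost without control 1, LPS plus IFNγ 1, 2 or 4 or emodin 1, 2 or 3 (0.0531 to 0.125), without both replicates 3 (0.116), or by quantile scaling or normexp (0.12 and 0.0548), and it was -0.18 by spike-ins. Rab13 and Rab37 were called in neither.

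Of the 4 genes of other or mixed sites, 2 rose and 2 fell with LPS plus IFNγ, and 1 rose and 3 fell with emodin. Rab39, a phagosome and lysosome Rab, read -3.93, -4.12, -3.72 and -3.54 in control, -2.46, -2.25, -2.20 and -2.62 with LPS plus IFNγ and -6.55, -6.81, -6.43 and -6.33 with emodin, none of the last above background. It rose 2.73-fold with the stimulus (1.45 ± 0.15, adjusted p = 2.69e-06), without overlap. With emodin it was at least 3.75-fold below the stimulated and at least 1.37-fold below the control level. No test is given for these bounds, because Rab39 was kept through the groups without emodin. By normexp the rise was 0.89 and the change with emodin -1.17. Rab23, known as an inhibitor of Hedgehog signalling, read -2.66, -2.65, -2.91 and -2.75 in control, -1.97, -2.01, -1.89 and -1.88 with LPS plus IFNγ and -3.88, -3.08, -3.65 and -3.16 with emodin, 3 groups that did not overlap. It rose by 0.81 ± 0.16 (adjusted p = 0.000593) and fell by 1.51 ± 0.16 (adjusted p = 3.45e-06) to below control, or by 0.68 by normexp after a rise of 0.47. Rab28, of cilia and photoreceptors, fell at each step, by 0.63 and 0.78. Rab40c, which joins a ubiquitin ligase through its SOCS box, fell by 0.95 ± 0.07 and rose by 0.82 ± 0.07, ending -0.12 ± 0.07 from control (adjusted p = 0.114); scaled by spike-ins the rise was 0.13 (adjusted p = 0.417).

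Between emodin and control, 16 Rab genes were higher (33.3%, against 39.8% of all genes) and 23 lower (47.9%, against 38.2%), 81.2% called against 78%. The 23 include Rab27a, Rab42, Rab38, Rab39 and Rab4a, kept only through groups without emodin. The median change was -0.12, beside 0.02 over all genes. Changes of at least 2-fold numbered 7 upward and 14 downward (43.8%, against 38.5%), and 38 Rab genes had arrays that did not overlap (79.2%, against 72.6%). This comparison shares arrays with both others and carries the slide and age difference. Rab43 and Rab20 were above control by 2.57 and 2.36. Rab15 was above it by 2.62 by the probe used, while its other probe had means of -1.9 in control and -2.08 with emodin. Rab19 and Rab7b were furthest below it among probes above background on all arrays, by 3.53 and 3.06. Without both replicates 3, Rab10 and Rab8a were not called (adjusted p = 0.0949 and 0.0517). By normexp Rab10, Rab21, Rab37, Rab5c and Rab8a were not called. Rab27a, kept through the control arrays only, lost its call there too, and no test is given for it. By quantile scaling Rab5c was not called (adjusted p = 0.246), and the rises of Rab10 and Rab35 turned sign, with values given under the dependence on processing. The 9 that were not called were Rab1a, Rab5b, Rab6a, Rab13, Rab14, Rab18, Rab32, Rab34 and Rab40c. Quantile scaling moved the median of all genes from 0.02 to -0.14. On that scale Rab32, Rab40c, Rab5b and Rab14 were called lower than control, by 0.38, 0.35, 0.38 and 0.46, and Rab6a, Rab1a and Rab18 turned to called falls of 0.25, 0.32 and 0.20.

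Because close paralogues can do the same work, the log2 ratio of 15 pairs of related Rab genes was taken within each array, where scaling cancels. The ratio differed between LPS plus IFNγ and control for 12 of 15 pairs. Each had the smallest p that 4 against 4 arrays allow (exact two-sided permutation test, p = 0.0286, 0.0357 after adjustment over the 15 pairs). That p is reached whenever the ratios of the groups do not overlap. Among all single genes, 64.4% had no overlap in this comparison. The shares were 67.7% for emodin against LPS plus IFNγ and 72.6% for emodin against control. The share over other gene pairs was not computed, so these counts are not read as particular to Rab pairs. On the log2 scale Rab33a gained on Rab33b by 3.05, Rab32 on Rab38 by 2.18, Rab6a on Rab6b by 1.98, Rab7 on Rab7b by 1.80, Rab22a on Rab31 by 1.16, Rab11a on Rab11b by 1.05, and Rab5b lost 1.35 to Rab5c. These 7 were the pairs past the threshold with a change of at least 1. The SD of these ratios over 4 arrays lay between 0.04 and 0.56, so every one of the 7 changes exceeded the spread within its groups. Between emodin and control, 14 of 15 ratios differed (adjusted exact permutation p = 0.0306). The 14 include Rab32 over Rab38, which rests on Rab38 readings not above background and is not a measured ratio. They also include Rab4a over Rab4b, with Rab4a kept only through groups without emodin. Pairs that did not pass with LPS plus IFNγ were Rab2a with Rab2b, Rab8a with Rab8b and Rab3a with Rab3d.

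With emodin, 12 of 15 ratios again differed from LPS plus IFNγ (exact permutation p = 0.0286, adjusted 0.0357), and 1 moved by at least 1: Rab32 over Rab38 by 1.15, which rests on Rab38 readings below background and is not a measured ratio. Rab8a lost 0.99 to Rab8b, Rab7 gained 0.97 on Rab7b and Rab11a gained 0.86 on Rab11b. The ratios of Rab33a to Rab33b, Rab4a to Rab4b and Rab5a to Rab5b did not pass (adjusted p = 0.495, 0.971 and 0.949). Same-numbered LPS plus IFNγ and emodin samples deviated together, so an exact sign-flip test over the 4 numbered pairs was also run. This exact test cannot go below p = 0.125, which is what it gave for all 12, each with 4 of 4 pairs in 1 direction, and so none of the 12 passed with this pairing. Without both replicates 3 no ratio passed, since 3 against 3 arrays cannot go below 0.10.

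**Figure D4:**
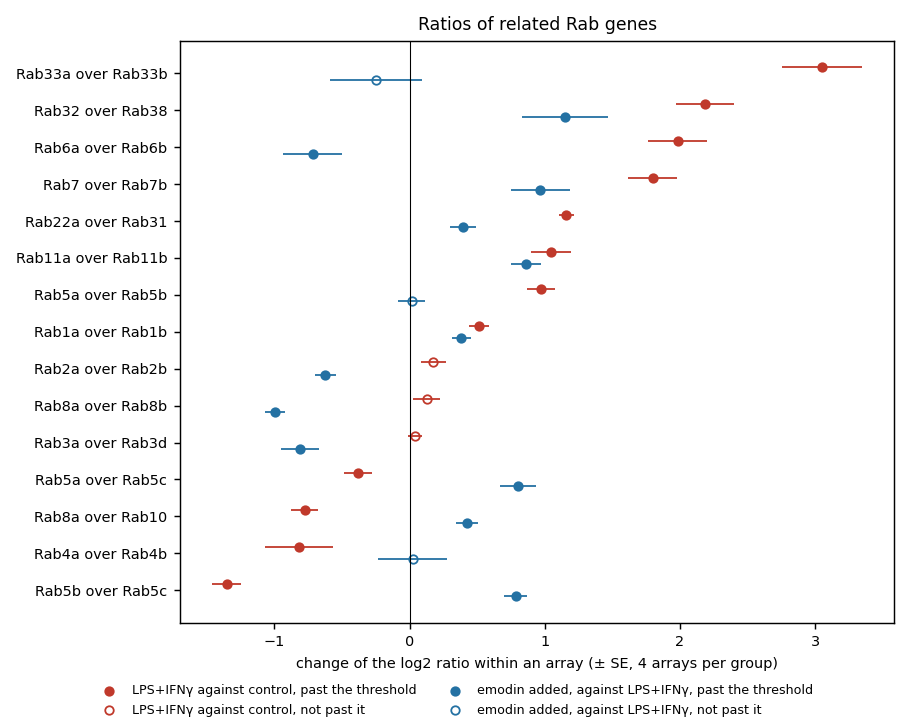
Change of the within-array log2 ratio of 15 pairs of related Rab genes (horizontal axis, ± SE over 4 arrays per group) for LPS plus IFNγ against control (red) and emodin added against LPS plus IFNγ (blue). Filled points had an adjusted exact permutation p under 0.05. Rab33a over Rab33b moves 3.05 at the first step and -0.25 at the second.

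Of 146 listed regulators, effectors and Rab-like genes, 127 were kept. With LPS plus IFNγ, 37 rose (29.1%, against 33.6% of all genes) and 39 fell (30.7%, against 35.5%). With emodin 58 rose (45.7%, against 36.6%) and 38 fell (29.9%, against 35.6%), or 12 (9.45%, against 9.28%) and 71 (55.9%, against 65.5%) when scaled by spike-ins. By the probes used, the Rab kinases and their phosphatase all rose with LPS plus IFNγ and fell with emodin. Lrrk2, the Parkinson's disease kinase that phosphorylates Rab8a, Rab10, Rab12 and Rab29 among others, read 0.32, 0.21, 0.36 and 0.64 in control, 3.99, 4.01, 3.80 and 3.97 with LPS plus IFNγ and 0.63, 0.38, 0.37 and 0.46 with emodin. The stimulated arrays stood far above both other groups, which overlapped. It rose 11.8-fold (3.56 ± 0.10, adjusted p = 5.31e-11) and fell 11.2-fold (-3.48 ± 0.10, adjusted p = 2.72e-10), and a second probe gave 3.53 and -3.46. Lrrk1, which phosphorylates Rab7, changed by 1.00 ± 0.11 and -1.16 ± 0.11, and Ppm1h, the phosphatase that reverses LRRK2's mark on Rab proteins, by 0.95 ± 0.10 and -1.17 ± 0.10. All 3 were called in both comparisons and none between emodin and control (adjusted p = 0.466, 0.207 and 0.072). The second Lrrk1 probe rose less, changing by 0.345 and -1.326. The second Ppm1h probe did not share the rise of the first (-0.23) but shared its fall (-0.92).

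Of 33 exchange factors kept, 13 rose and 10 fell with LPS plus IFNγ, and 14 rose and 11 fell with emodin. Scaled by spike-ins, 5 rose and 19 fell with emodin. Dennd3, which activates Rab12, was above background on 1 of 4 control arrays and on all treated arrays, reading -4.49, -5.0, -4.96 and -4.58 in control, 0.04, 0.13, 0.06 and 0.16 with LPS plus IFNγ and -0.12, -0.30, -0.28 and -0.18 with emodin. All treated arrays were far above all control arrays, a mean difference of 4.85 that rests on 3 control readings not above background, so no test is given. The related Rab8 exchange factors went opposite ways: Rab3il1 (GRAB) fell by 2.52 ± 0.12 and recovered 1.5 with emodin, while Rab3ip (Rabin8) rose by 2.02 ± 0.11. Under emodin Rab3ip changed by 0.60 (-0.10, adjusted p = 0.533 by spike-ins). Dennd4c rose by 1.74 and Dennd1c, which activates Rab35, fell by 1.56 with emodin. Hps1 and Hps4, which together activate Rab32 and Rab38 and were picked after their values were seen, moved little: Hps1 fell by 0.45 with LPS plus IFNγ, and Hps4 was called in neither comparison.

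Of 33 GTPase-activating proteins kept, 7 rose and 16 fell with LPS plus IFNγ, and 15 rose and 11 fell with emodin. By spike-ins 4 rose and 18 fell with emodin. Tbc1d9 rose by 2.22 ± 0.13 with the stimulus. Tbc1d16, which inactivates Rab4a, was above background on no LPS plus IFNγ array and was at least 5.85-fold lower than control, with no test given. Tbc1d8 differed by -1.63, with 1 of 4 LPS plus IFNγ arrays above background. With emodin, Tbc1d10a, which acts on Rab27a and Rab35, rose 3.74-fold (1.9 ± 0.08, adjusted p = 3.36e-09), Tbc1d4, a regulator of Rab10 and glucose transporter traffic, differed by -3.14 with 2 of 4 emodin arrays above background (-1.68 by its other probe), and Tbc1d30 was at least 1.4-fold lower.

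The lipid attachment and recycling machinery is shared by all Rab proteins. Of 8 genes, 2 rose and 2 fell with LPS plus IFNγ, and 4 rose and 4 fell with emodin. When scaled by spike-ins, none rose and 5 fell with emodin. Chm, the escort protein that presents Rabs for prenylation, fell by 1.29 ± 0.13 with LPS plus IFNγ (adjusted p = 3.01e-06), and Rabif, a Rab chaperone, rose by 0.45. The subunits of Rab geranylgeranyl transferase diverged with emodin. Rabggta fell by 1.05 ± 0.07 (adjusted p = 1.4e-07) and Rabggtb rose by 0.77 ± 0.09 (adjusted p = 6.93e-06; 0.07, adjusted p = 0.645 scaled by spike-ins).

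Among effectors, the late endosome and lysosome list had 10 of 15 members higher with emodin and 1 lower, after 2 rises and 4 falls with LPS plus IFNγ; scaled by spike-ins, 3 were higher and 7 lower with emodin. Vps11, a core subunit of the tethers that Rab5 and Rab7 recruit, rose 3.23-fold (1.69 ± 0.09, adjusted p = 1.7e-08), Plin3, reported to bind Rab9, by 1.14, and Rilpl2, an effector of LRRK2-phosphorylated Rabs, by 1.33 after a fall of 1.41. These 3 rises were also called when scaled by spike-ins. Rilp, the dynein adaptor of Rab7, fell by 1.10 ± 0.13 with LPS plus IFNγ. Of the 9 early endosome effectors, 3 rose and 1 fell with LPS plus IFNγ. With emodin 6 rose and none fell, but scaled by spike-ins none rose and 6 fell. Rabep1 rose by 0.59 and Rbsn by 0.48 with emodin, neither called when scaled by spike-ins (-0.10 and -0.21). Of the 3 rises with LPS plus IFNγ, that of Eea1 was not called by quantile scaling (adjusted p = 0.297) or without both replicates 3 (0.136). Ankfy1 rose by 1.62 with LPS plus IFNγ by one probe and fell by 0.62 by the other.

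Of 10 recycling effectors, 2 rose and 3 fell with LPS plus IFNγ and 4 rose and 2 fell with emodin. When scaled by spike-ins, none rose and 4 fell with emodin. Rab11fip1 and Acap2 rose by 1.30 and 0.89, and Myo5b was at least 1.37-fold lower, with LPS plus IFNγ. Rab11fip4, Micall1 and Myo5a rose by 1.04, 0.80 and 0.80 with emodin, none of them called when scaled by spike-ins. Of 7 Golgi effectors, 2 rose and 1 fell and then 4 rose and 1 fell, or none rose and 3 fell with emodin by spike-ins. Golga2, Cog6 and Golga5 were up by 0.87, 0.83 and 0.60 with emodin, none of them called when scaled by spike-ins. The rise of Golga2 with LPS plus IFNγ was not called by quantile scaling (0.443) or without both replicates 3 (adjusted p = 0.144). Of 15 secretion effectors, 4 were kept. Unc13d, which primes granules with Rab27a, rose by 1.07 and fell by 0.76, Exoc6 of the exocyst fell by 0.56 with emodin, and Sytl1 fell by 0.70 with LPS plus IFNγ. Of 5 Rab-like genes kept, 2 rose and 1 fell and then 1 rose and 3 fell, Rabl2, Ift22 and Ift27, all linked to ciliary transport, falling by 1.77, 1.21 and 1.19 with emodin.

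**Figure D5:**
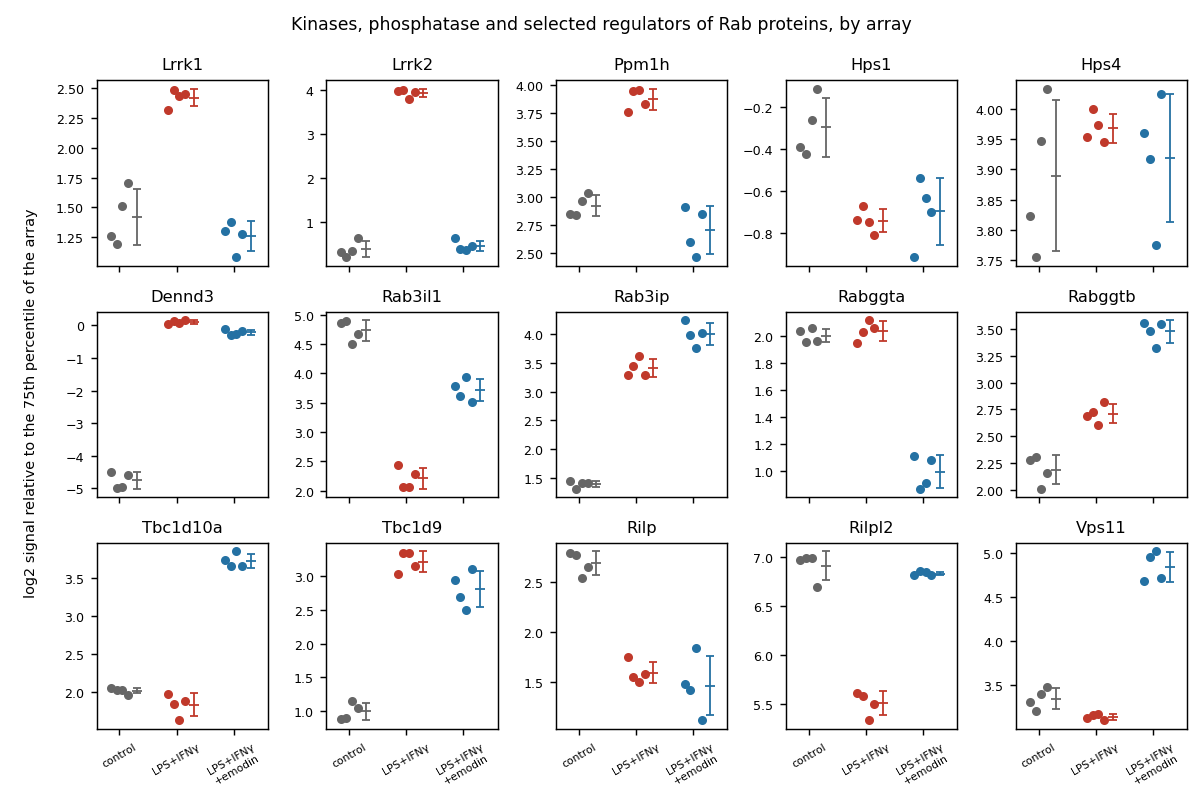
Log2 level (vertical axis, own scale in each panel) of 15 Rab regulators and effectors on the 4 arrays of each group (points), with mean ± SD beside them. By the probes used, Lrrk1, Lrrk2 and Ppm1h peak with LPS plus IFNγ and return near control with emodin, Dennd3 stays up with emodin, and Rabggta and Rabggtb part with emodin.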

How the data were processed

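Each of 12 arrays measured 1 RNA sample in a single colour. The deposited scanner files give processed signal intensity per spot and detection flags, per the file headers. The submitters' processing notes name Agilent Feature Extraction, version 10.7.3.1. A deposited table of log2 values was also used as an alternative. Set against the scanner files, it matched log2 intensity after quantile normalisation and centring of each probe on its median, and its columns for control 1, 3 and 4 matched the scanner files of control 4, 1 and 3.

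Levels were log2 intensity minus each array's 75th percentile, with control spots left out. Probes well above background on all 4 arrays of a group were kept (27380 probes), and accessions were matched to RefSeq symbols (17168 kept probes, 13169 genes), the probe with the highest mean standing for a gene. limma 3.58.1 in R 4.3.3 was fitted to all 3 groups (lmFit and eBayes), with Benjamini-Hochberg adjustment over all genes, and was tested on simulated data. Pairs of paralogues were tested with exact permutation tests. The normexp alternative (offset 50) used the median spot signal, because the files used here hold no mean signal. The depth of an array is not a count: the number of arrays limits the precision.

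Members and lists were chosen with earlier results of these data known. Values on every array are given for Rab genes called with a change of at least 2-fold in LPS plus IFNγ against control or emodin against LPS plus IFNγ, and up to 3 called genes were named for each regulator list and comparison. A result that this rule would name is not reported here. Same-numbered LPS plus IFNγ and emodin samples deviated together (r = 0.229, 0.283, 0.162 and 0.15 over all genes), so the numbers were taken to pair these groups, and the block fit on their 8 arrays was added after seeing the data. Alternatives were quantile scaling, the percentile over detected probes, spike-in scaling, normexp, other filters on dim probes, the mean of a gene's probes, the deposited table, the 8 arrays compared, a replicate block and left-out arrays.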

Additional observations from a re-analysis of the deposited data

Results flagged for a closer look

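In 8 of 144 sets of 4 arrays (48 Rab genes in 3 groups), the highest or lowest array stood apart from the other 3 by more than Dixon's critical value for 4 samples, where chance gives about 1 in 20. Levels are log2. In control, replicate 3 was high for Rab15 (0.36, nearest -0.69) and Rab42 (-2.31, nearest -2.40) and low for Rab6a (4.32, nearest 4.49), and replicate 4 was high for Rab6b (0.44, nearest 0.25). With LPS plus IFNγ, replicate 1 was high for Rab29 (4.19, nearest 3.98) and replicate 3 was high for Rab8b (4.77, nearest 4.68). With emodin, replicate 3 was high for Rab7b (3.89, nearest 3.22) and replicate 4 was high for Rab35 (5.53, nearest 5.38).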

How the results depend on the processing

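Counts of called Rab genes stayed within 1.5 times under the alternatives listed in the methods, except for spike-in scaling and the 2-fold threshold. With at least 2-fold required, they were 6 up and 5 down for LPS plus IFNγ against control, 2 and 11 for emodin against LPS plus IFNγ, and 7 and 14 for emodin against control. Under spike-in scaling, emodin against LPS plus IFNγ gave 2 up and 40 down among Rab genes and 12 up and 71 down among regulators, and the Rab median was -0.915. There the sign turned for Rab11a (-0.276), Rab13 (-0.674), Rab14 (-0.617), Rab20 (-0.462), Rab22a (-0.566), Rab24 (-0.474), Rab37 (-0.527), Rab3c (-0.182), Rab5a (-0.346), Rab5b (-0.363) and Rab6b (-0.583). That scaling was run only between the treated groups, which share a slide.

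The median Rab change, in the order LPS plus IFNγ against control, emodin against LPS plus IFNγ and emodin against control, was -0.205, -0.305 and -0.314 with the percentile over detected probes, 0.073, -0.082 and -0.079 with probes above background on all arrays, which tests fewer genes, and 0.111, -0.302 and -0.079 without a filter, over all 57 Rab genes on the array. For emodin against control it was -0.36 by quantile scaling and -0.364 in the deposited table, and for LPS plus IFNγ against control it was -0.02 without both replicates 3. For LPS plus IFNγ against control the sign of this median changed with the filter. The median over all genes in that comparison, -0.043, moved to 0.215 without a filter and to -0.158 with the percentile over detected probes, and for emodin against LPS plus IFNγ it moved from 0.023 to -0.671 under spike-in scaling.

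By normexp, Rab27a turned to 0.123 with emodin against LPS plus IFNγ and Rab6a to -0.272 against control. Emodin against control also turned for Rab10 (-0.077 by quantile scaling, -0.05 with the percentile over detected probes, -0.08 in the table), Rab18 (-0.199 by quantile scaling, -0.202 in the table), Rab1a (-0.324 and -0.333), Rab35 (-0.025 and -0.032) and Rab6a (-0.248 and -0.252). The cause was not tested.

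Leaving out 1 array at a time gave 17 to 18 up and 16 to 20 down for LPS plus IFNγ against control (median -0.152 to -0.02), 7 to 10 up and 23 to 26 down for emodin against LPS plus IFNγ (median -0.257 to -0.204), and 15 to 16 up and 21 to 23 down for emodin against control (median -0.137 to -0.107). Paralogue pairs past the threshold numbered 10 to 12, 9 to 12 and 14. Without both replicates 3 0 pairs passed for emodin against LPS plus IFNγ, by construction of 3 against 3 arrays.

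With the replicate number as a block on the 8 treated arrays, Rab2b lost its call (adjusted p = 0.112) and Rab20 and Rab34 gained one (0.0196 and 0.0459). Rab4a, kept only through groups without emodin, lost its call too. Among the named regulators Tbc1d9 lost its call (adjusted p = 0.0677). No other call of a Rab gene or named regulator changed with this block. Control numbers did not pair with those of the treated groups (r from -0.186 to 0.142). Probes near background limit Rab27a, Rab38, Rab39 and Rab42, whose folds with emodin are bounds.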
